A study of Mus musculus with 4 samples.

Results

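Solute carriers are the large group of membrane proteins that move amino acids, sugars, ions, metals, vitamins and organic acids across the plasma membrane and the membranes of organelles, either by facilitated diffusion or coupled to a gradient of sodium, protons or another solute. In the kidney they carry out much of the reabsorption and secretion of the tubule, and inside every cell they feed lysosomes, Golgi and vesicles. The genes described here are the named solute carriers that remained after the mitochondrial Slc25a family and a set of amino acid and haem carriers (among them Slc7a11, Slc6a9, Slc1a4 and Slc38a2) were set aside. They numbered 28 of 39 named solute carriers, on arrays with 16755 probe sets of which 1616 carried a gene name. A name was present only where the probe set had passed the authors' own test of these genotypes, so all 28 genes had been selected on the difference that is described below. Differences and p-values are therefore given as a description, and solute carriers whose probe sets carry no name were not analysed here.

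RNA was measured on Affymetrix whole-transcript arrays in immortalised mouse kidney epithelial cells, 2 arrays of Fh1Δ/Δ cells (knock out of fumarate hydratase, the enzyme of the tricarboxylic acid cycle that converts fumarate to malate) and 2 arrays of Fh1fl/fl cells (wild type, with the floxed allele intact). Both came from a C57BL/6 background and grew without treatment in normoxia, in DMEM with 10% serum and 2 mM glutamine. The authors' methods also add pyruvate and uridine to the medium of the mouse cell lines. The replicates are labelled biological, but whether they were separate cultures or clones is not given in the sources used here, so p-values cover the spread between these arrays alone, which may be technical. Both genotypes are cell lines, so a difference between lines and an effect of the deletion cannot be told apart.

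Fh1 itself was at 9.21 and 9.14 in Fh1Δ/Δ cells, against 10.48 and 10.45 in Fh1fl/fl cells, a log2 difference of -1.29 ± 0.11 (SE; limma, Benjamini-Hochberg adjusted p = 0.00579). Most of 11 kidney epithelial markers had no named probe set, so the cell type could not be checked against them; Emx2, which had a name, was lower in Fh1Δ/Δ cells (-1.12). Replicate arrays correlated at r = 0.992 in Fh1Δ/Δ cells and 0.992 in Fh1fl/fl cells over all probe sets (probe sets are not independent replicates).

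Values are log2 expression after RMA, and each difference is Fh1Δ/Δ minus Fh1fl/fl. Of the 28 genes, 16 were above 0 and 12 below. With limma, 11 genes (39.3%) passed as higher in Fh1Δ/Δ cells (adjusted p under 0.05), where 6.23% of all 16752 genes tested were. Another 3 (10.7%) were lower, where 3.99% of all genes were. In either direction 14 of the 28 passed, against 64.2% of the named genes. The arrays of both genotypes did not overlap for any of the 28 genes, as for 66.3% of all genes. Nothing is read from these shares, since a gene without a difference would not have been named. Centring each array on its median gave 7 and 6 solute carriers in place of 11 and 3. Without Fh1Δ/Δ replicate 1 the genes passing as higher and lower numbered 1 and 0, without Fh1Δ/Δ replicate 2 they numbered 3 and 0, without Fh1fl/fl replicate 1 they numbered 3 and 0, and without Fh1fl/fl replicate 2 they numbered 2 and 0. Of the lower genes, 7 or 8 had an unadjusted p under 0.05 in each of those fits, against 11 on all 4 arrays. The genes that passed with an array left out were Slc6a12 each time, Slc9a7 except without Fh1Δ/Δ replicate 1, and Slc38a9 without Fh1Δ/Δ replicate 2 or Fh1fl/fl replicate 1.

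**Figure D1:**
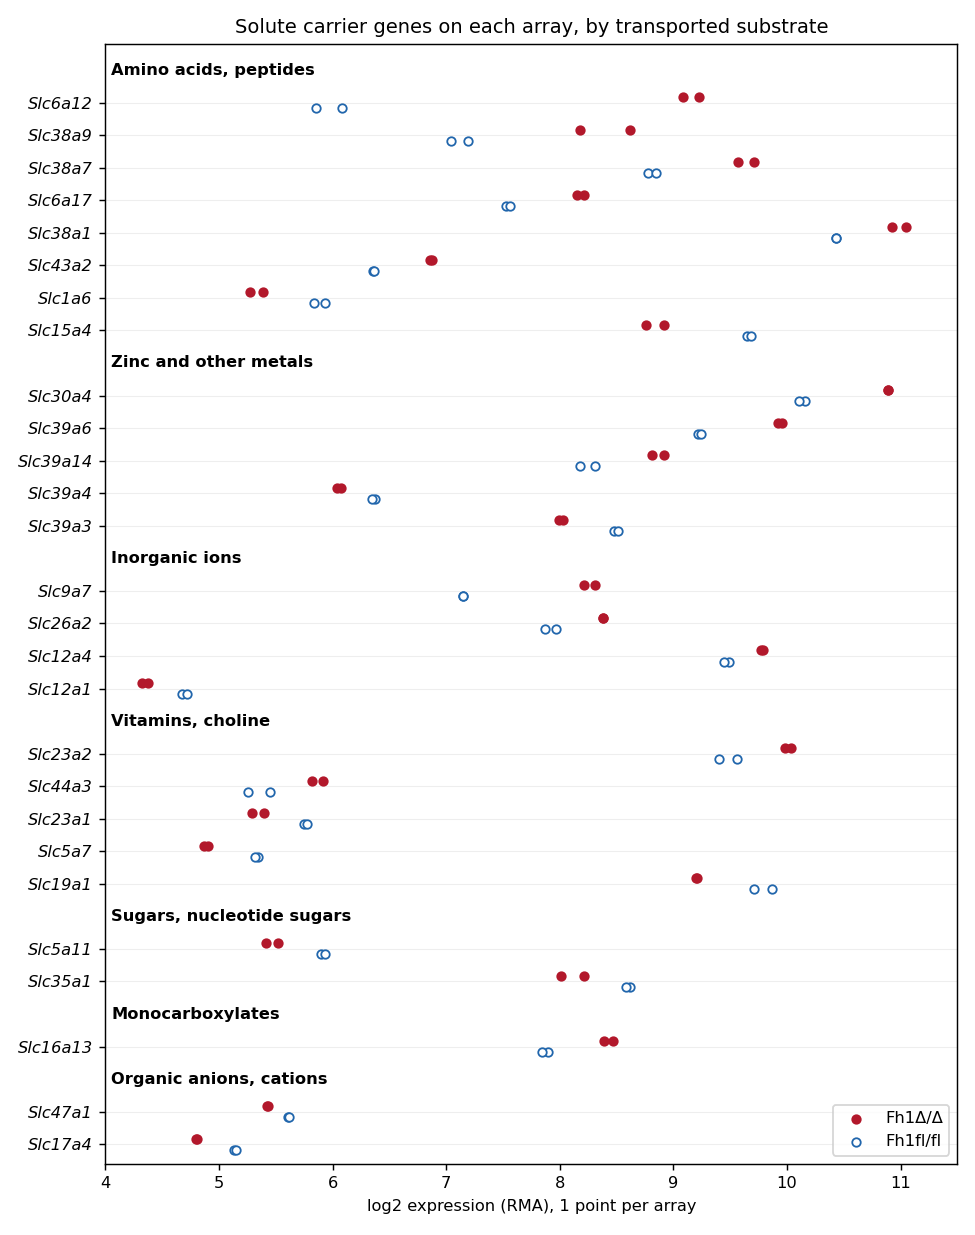
Log2 expression (x axis, RMA) of 27 of the solute carrier genes, 1 point per array, grouped by what they carry. Filled points are the 2 Fh1Δ/Δ arrays and open points the 2 Fh1fl/fl arrays. The genotypes do not overlap for any gene shown, and Slc6a12 shows the widest separation.

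Amino acids or peptides are carried by 8 of the genes. Of these, 6 rose and 2 fell in Fh1Δ/Δ cells, all past the threshold, where 64.2% of the named genes passed in either direction. All were named for passing the authors' test, so nothing is read from this count or from those of the groups below. Slc6a12, the sodium- and chloride-coupled carrier of betaine and GABA that renal medullary cells use to take up betaine as an osmolyte, was at 9.23 and 9.09 in Fh1Δ/Δ cells, against 5.86 and 6.08 in Fh1fl/fl cells. That is a difference of 3.19 ± 0.13 (SE, adjusted p = 0.00148), or 9.13-fold, and ranked 18 among the named genes above 0. In a bulk culture such as this, more cells with the RNA and more RNA per cell cannot be told apart.

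The SLC38 family moves small neutral amino acids, glutamine among them, and 3 of its genes were here. Slc38a9, a lysosomal carrier that reports arginine to the mTORC1 machinery, was at 8.61 and 8.18 in Fh1Δ/Δ cells, against 7.19 and 7.04 in Fh1fl/fl cells, a difference of 1.28 ± 0.18 (SE, adjusted p = 0.0187). Its Fh1Δ/Δ arrays differed more than those of any other gene of the set, while the other 27 genes had replicates within 0.25 of each other. Slc38a7, which exports glutamine and asparagine from lysosomes, was at 9.57 and 9.71 in Fh1Δ/Δ cells, against 8.77 and 8.84 in Fh1fl/fl cells (0.83 ± 0.12, SE, adjusted p = 0.0203). Slc38a1, a sodium-coupled importer of glutamine at the plasma membrane, was higher by 0.56 (adjusted p = 0.0434).

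Slc15a4, the proton-coupled carrier of histidine and short peptides out of lysosomes, had the lowest difference of the 28 genes. It was at 8.92 and 8.76 in Fh1Δ/Δ cells, against 9.65 and 9.68 in Fh1fl/fl cells (-0.83 ± 0.12, SE, adjusted p = 0.0204). The 3 lysosomal amino acid and peptide carriers of the set thus did not share a direction: Slc38a7 and Slc38a9 rose and Slc15a4 fell. Of the remaining genes of this kind, Slc6a17, a vesicular carrier of neutral amino acids in neurons, was higher by 0.64 (adjusted p = 0.0307), and Slc43a2, a uniporter of large neutral amino acids, by 0.50 (adjusted p = 0.048). Slc1a6, a glutamate transporter best known from Purkinje cells, was lower (-0.55, adjusted p = 0.0464), and both of its Fh1Δ/Δ values lay below the lower quartile of their array.

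Promoters (250 bases before to 50 after a start site, RefSeq, GRCm38.p6) were at hand for 18 of the 28 genes. The stretches below come from genes described here that hold a searched motif, with the match in capitals and all written 5′ to 3′ on the strand of the gene. Slc6a12 is shown for having the largest difference, with the core of the tonicity element, which was searched after its values were seen. The others are shown as the matches to the HIF core and to the antioxidant response element. In Slc19a1 the match lies on the opposite strand.
Slc6a12, chr6:121342479-121342526, plus strand, tonicity element core: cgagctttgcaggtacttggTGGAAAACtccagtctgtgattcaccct
Slc38a7, chr8:95853500-95853544, minus strand, HIF core: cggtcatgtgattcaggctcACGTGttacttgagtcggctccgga
Slc1a6, chr10:78780445-78780489, plus strand, HIF core: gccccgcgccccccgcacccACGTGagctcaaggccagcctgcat
Slc35a1, chr4:34687435-34687483, minus strand, antioxidant response element: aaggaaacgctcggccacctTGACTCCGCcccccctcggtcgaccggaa
Slc19a1, chr10:77033162-77033210, plus strand, antioxidant response element: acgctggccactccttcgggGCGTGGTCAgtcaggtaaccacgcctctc

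Each motif was searched on both strands, and the share of promoters of the 28 genes is set beside that of 27025 genes. The tonicity element core (TGGAAANN) was in 4 of 18 promoters (22.2%, against 23.8% of all genes), those of Slc6a12, Slc38a7, Slc43a2 and Slc6a17. The HIF core (ACGTG) was in 2 (11.1%, against 21.8%), in both within the letters CACGTG, which are also an E-box, so the motifs overlap. The antioxidant response element (TGACNNNGC) was in 2 (11.1%, against 14.0%), both in genes below 0, and the ATF4 composite element (TGATGNAAN) in 0 (against 4.5%). A loose pattern for the metal response core (TGCNCNC, with any base at N) was in 11 (61.1%, against 53.6%). Of those genes Slc30a4 and Slc39a3 are zinc carriers and the others are not. These are matches of letters in 1 window per start site and carry no measure of binding.

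Zinc carriers made up 5 of the genes, and 3 of the 5 were higher in Fh1Δ/Δ cells while 2 did not pass. Slc30a4, of the SLC30 family that moves zinc out of the cytosol into vesicles, was at 10.89 and 10.89 in Fh1Δ/Δ cells, against 10.16 and 10.10 in Fh1fl/fl cells (0.75 ± 0.11, SE, adjusted p = 0.0206). The SLC39 family moves zinc the opposite way, into the cytosol. Its member Slc39a6 was at 9.92 and 9.96 in Fh1Δ/Δ cells, against 9.21 and 9.24 in Fh1fl/fl cells (0.71, adjusted p = 0.0237). Slc39a14, which also takes up iron and manganese, was at 8.91 and 8.81 in Fh1Δ/Δ cells, against 8.17 and 8.31 in Fh1fl/fl cells (0.62, adjusted p = 0.0394).

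The other SLC39 genes lay below 0. Slc39a3 was at 8.03 and 7.99 in Fh1Δ/Δ cells, against 8.47 and 8.51 in Fh1fl/fl cells (-0.48, adjusted p = 0.0532). For Slc39a4, the intestinal zinc importer, the difference was -0.30 (adjusted p = 0.123). Exporters and importers of zinc were thus both among the genes that rose.

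Carriers of inorganic ions numbered 5, with 1 passing as higher and 4 not passing. Slc9a7, the sodium or potassium/proton exchanger of the trans-Golgi network, was at 8.31 and 8.21 in Fh1Δ/Δ cells, against 7.15 and 7.15 in Fh1fl/fl cells, a difference of 1.11 ± 0.11 (SE, adjusted p = 0.0084) or 2.16-fold. Slc12a4, a potassium-chloride cotransporter that lets cells lose salt and water after swelling, had a positive difference short of the threshold (0.31, adjusted p = 0.118).

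Slc26a2, a sulphate transporter needed for sulphation of cartilage proteoglycans, was at 8.38 and 8.38 in Fh1Δ/Δ cells, against 7.96 and 7.87 in Fh1fl/fl cells (0.46, adjusted p = 0.0612). Slc12a1, the sodium-potassium-chloride cotransporter that defines the thick ascending limb and is blocked by loop diuretics, was at 4.33 and 4.38 in Fh1Δ/Δ cells, against 4.67 and 4.72 in Fh1fl/fl cells (-0.34, adjusted p = 0.101). All 4 of its values lay below the lower quartile of their array, so this segment marker was dim in both genotypes.

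Of 5 carriers of vitamins and choline, only Slc19a1, the reduced folate carrier, passed the test, at 9.20 and 9.20 in Fh1Δ/Δ cells, against 9.71 and 9.86 in Fh1fl/fl cells (-0.58, adjusted p = 0.0421). The sodium-coupled carriers of vitamin C had differences of opposite sign. Slc23a2, the form found in most tissues, was at 9.98 and 10.03 in Fh1Δ/Δ cells, against 9.40 and 9.56 in Fh1fl/fl cells (0.53, adjusted p = 0.0528), while Slc23a1, the form of the kidney and gut epithelium, differed by -0.42 (adjusted p = 0.0737). Neither passed, and the difference between them was not tested. Both Fh1Δ/Δ values of Slc23a1 lay below the lower quartile of their array, and its difference was -0.19 after quantile normalisation.

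Choline carriers were dim. Slc44a3, of the choline transporter-like family, was at 5.91 and 5.82 in Fh1Δ/Δ cells, against 5.25 and 5.44 in Fh1fl/fl cells (0.51, adjusted p = 0.0614). Slc5a7, which supplies choline for acetylcholine synthesis in neurons, was at 4.87 and 4.91 in Fh1Δ/Δ cells, against 5.34 and 5.32 in Fh1fl/fl cells (-0.44, adjusted p = 0.0623). Both Fh1fl/fl values of Slc44a3 and all 4 values of Slc5a7 lay below the lower quartile of their array.

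The last 5 genes carry sugars, nucleotide sugars, monocarboxylates and organic ions. Slc16a13, of the monocarboxylate transporter family, was the only 1 of them to pass, at 8.39 and 8.47 in Fh1Δ/Δ cells, against 7.89 and 7.84 in Fh1fl/fl cells (0.56, adjusted p = 0.0411). Slc35a1, which brings CMP-sialic acid into the Golgi, was at 8.21 and 8.01 in Fh1Δ/Δ cells, against 8.62 and 8.58 in Fh1fl/fl cells (-0.49, adjusted p = 0.0665). Slc5a11, a sodium-coupled carrier of myo-inositol, was at 5.41 and 5.52 in Fh1Δ/Δ cells, against 5.90 and 5.93 in Fh1fl/fl cells (-0.45, adjusted p = 0.065).

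The organic ion carriers were near the dim end of the arrays. Slc47a1, which extrudes organic cations into the tubule lumen in exchange for protons, was at 5.43 and 5.43 in Fh1Δ/Δ cells, against 5.61 and 5.62 in Fh1fl/fl cells (-0.18, adjusted p = 0.28). Slc17a4, of the sodium-phosphate and organic anion transporter family, was at 4.80 and 4.80 in Fh1Δ/Δ cells, against 5.14 and 5.15 in Fh1fl/fl cells (-0.34, adjusted p = 0.0991). The sign of Slc47a1 turned under other scalings, as given next.

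Brightness moved with the direction of the difference. Among the 12 genes below 0, 8 had a mean level under the median of all probe sets (7.24), against 2 of the 16 genes above 0, and over all named genes the same held for 31.1% of those below 0 and 19.8% of those above. The lower quartile of all probe sets was 5.37 and 5.53 on the Fh1Δ/Δ arrays, against 5.64 and 5.70 on the Fh1fl/fl arrays. All probe sets together had median differences of -0.21, -0.23, 0.05 and -0.01 in 4 equal classes from dim to bright. Those medians were -0.02, -0.09, -0.04 and -0.02 after quantile normalisation of the 4 arrays. The 8 dim genes below 0 (Slc1a6, Slc39a4, Slc12a1, Slc23a1, Slc5a7, Slc5a11, Slc47a1 and Slc17a4) ranged between -0.55 and -0.18 as deposited, with 1 passing, and between -0.33 and 0.05 after quantile normalisation, with 0 passing. Slc1a6 was then at -0.33 (adjusted p = 0.123) and Slc47a1 at 0.05. Over all 28 genes, 11 passed as higher and 4 as lower after quantile normalisation. Slc39a3 (-0.58, adjusted p = 0.0315), Slc35a1 (-0.58, adjusted p = 0.0357) and Slc44a3 (0.72, adjusted p = 0.0303) passed then and not as deposited, while Slc16a13 (0.46, adjusted p = 0.0586) and Slc1a6 no longer passed.

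**Figure D2:**
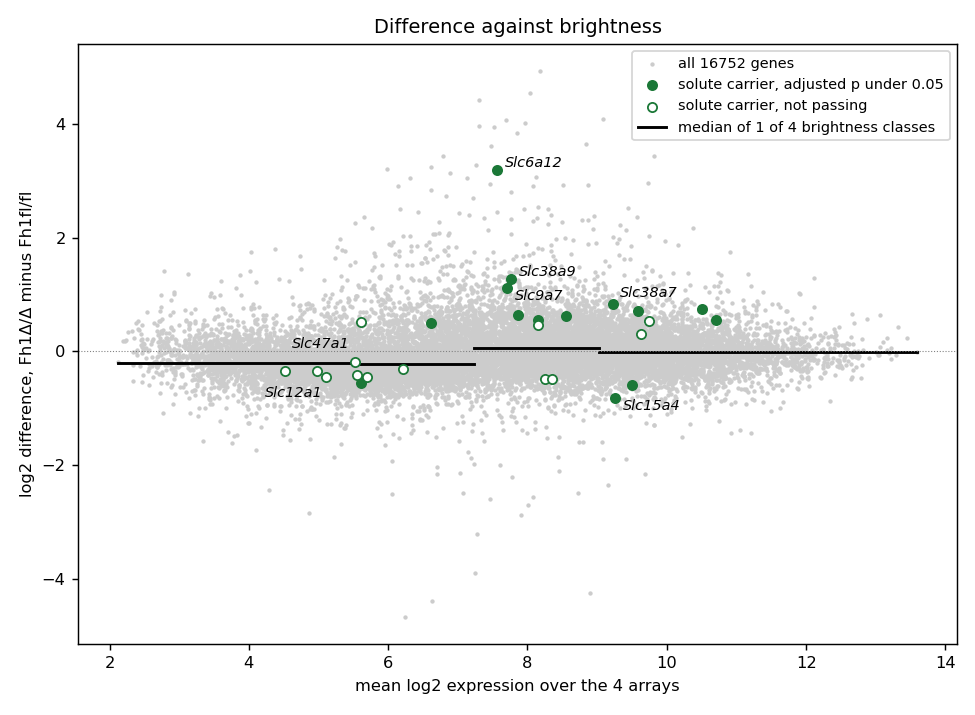
Log2 difference (y axis, Fh1Δ/Δ minus Fh1fl/fl) against mean log2 expression over the 4 arrays (x axis), with all 16752 genes in grey and 27 of the solute carriers in green, filled where the limma adjusted p is under 0.05. Black lines are medians of 4 equal brightness classes of all probe sets, at -0.21, -0.23, 0.05 and -0.01, and most dim solute carriers lie below 0.

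Chromosomes also had unlike median differences, from -0.34 (chromosome 16) to 0.44 (chromosome 14) for probe sets brighter than the median. For dimmer probe sets the median was below 0 on every chromosome, between -0.28 and -0.13 on the autosomes and X. The sign of a dim median is thus not particular to a chromosome. In all, 19 of the 28 genes had the sign of the median of their chromosome, taken over probe sets of like brightness. Among the 19 were the 8 dim genes below 0. That share (67.9%) was close to the 71.1% of all 16077 genes placed on a chromosome, so it is no feature of the solute carriers. Slc39a14 (chromosome 14, median 0.44) was at 0.18 (adjusted p = 0.433) once the median was removed, Slc38a1 (chromosome 15, median 0.31) at 0.24 (adjusted p = 0.269), and Slc39a6 (chromosome 18, median 0.32) at 0.39 (adjusted p = 0.0994). On chromosome 10, whose median was -0.33 for bright probe sets, Slc19a1 was at -0.25 (adjusted p = 0.263) and Slc39a3 at -0.15 (adjusted p = 0.458). Slc1a6, also on chromosome 10, was at -0.28 (adjusted p = 0.226), and Slc16a13 on chromosome 11 at 0.48 (adjusted p = 0.0681). Removal left 8 of the 14 genes that had passed.

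Other genes kept most of their difference. With the chromosome median removed, Slc6a12 was at 3.03 (adjusted p = 0.00154), Slc9a7 at 1.13, Slc38a9 at 0.98 (adjusted p = 0.0361), Slc38a7 at 0.90 and Slc30a4 at 0.85. Slc15a4 was at -0.61 (adjusted p = 0.0436) and was the only gene still passing as lower. Slc23a2, on chromosome 2, did not pass as deposited and passed with the median removed (0.63, adjusted p = 0.0419). The same held for Slc44a3, a dim gene on chromosome 3 (0.71, adjusted p = 0.0354). The part of brightness and of chromosome shifts in the differences was not tested.

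**Figure D3:**
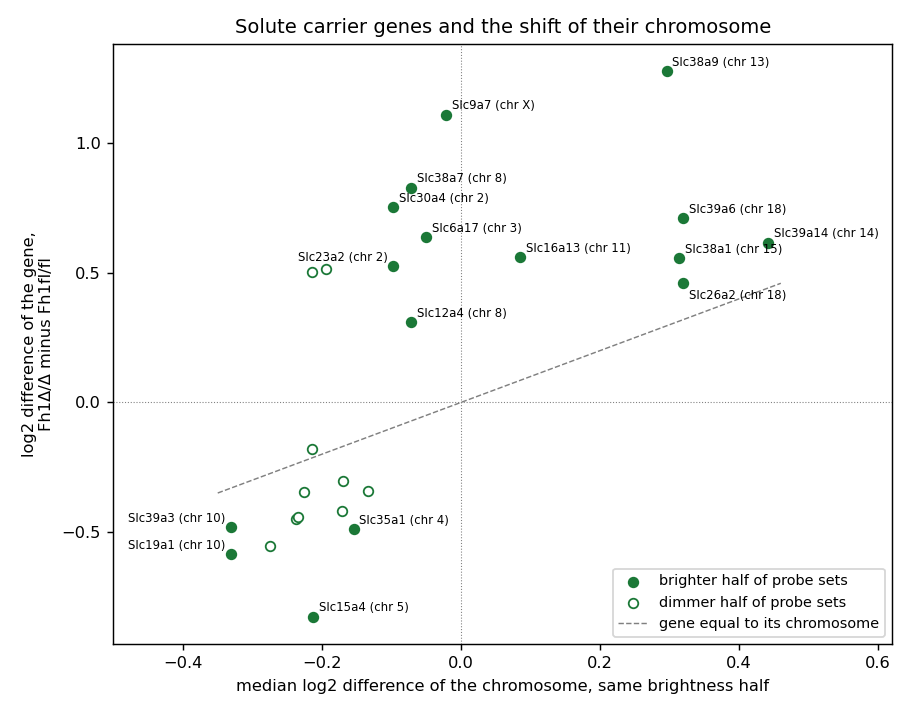
Log2 difference of each gene (y axis, Fh1Δ/Δ minus Fh1fl/fl) against the median log2 difference of its chromosome among probe sets of like brightness (x axis), for 26 genes, with Slc6a12 at 3.19 left off the scale. Filled points are brighter and open points dimmer than the median probe set. On the dashed line a gene equals the median of its chromosome and brightness, as the dim gene Slc47a1 (chromosome 11) nearly does. Medians of dim probe sets are below 0 on every chromosome, and that of bright probe sets on chromosome 11 is 0.09.

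**Figure D4:**
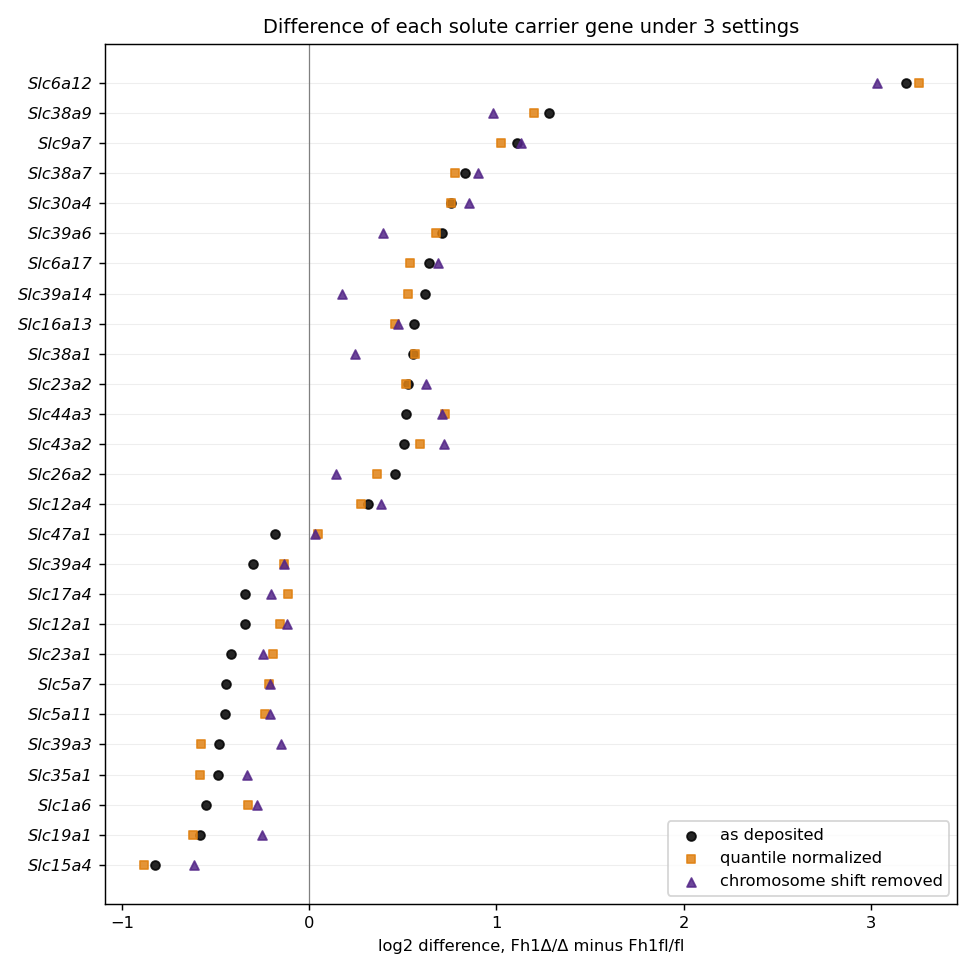
Log2 difference (x axis, Fh1Δ/Δ minus Fh1fl/fl) of 27 of the genes on the values as deposited, after quantile normalisation, and with the median of the chromosome removed. Slc6a12 stays between 3.03 and 3.26, while Slc39a14, at 0.62 as deposited, lies at 0.18 with its chromosome median removed and Slc47a1 crosses 0.

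The sizes of the differences are set beside those of the other named genes as a description, with no test. The median difference over all 28 genes was 0.48, against 0.38 over the named genes. Only 3 of the 28 genes (10.7%), Slc6a12, Slc38a9 and Slc9a7, differed by more than 1 on the log2 scale, against 22.9% of the named genes. The median difference over the 16 genes above 0 was 0.59, against 0.72 over the named genes above 0, and over the 12 genes below 0 it was -0.45, against -0.56. The share above 0 was 57.1%, against 57.3% of the 1613 named genes, and the median of all genes tested was -0.11. The 11 solute carriers set aside by the rule had a median of 0.92, with 9 passing as higher, 0 as lower and 2 not passing. Of all genes tested, 6.23% passed as higher and 3.99% as lower, and 64.2% of the named genes passed in either direction. The 11 were likewise named only where they had passed the authors' test, so nothing is read from their count. Among them were Slc25a13 (4.42), Slc7a11 (4.08), Slc6a9 (2.37) and Slc1a4 (2.22).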

How the data were processed

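The deposited values were log2 expression after RMA, which the authors made in Partek against mm9 (per the labels, versions not given in the sources used here). No scanner files, and so no detection calls, were used. A deposited table of 1616 named probe sets, each with an adjusted p under 0.05 in the authors' comparison of these genotypes, gave the gene names. The authors' fold changes and p-values in it were not used. The deposited tables together held 12 columns labelled as hypoxia arrays, 4 of them in this table. These matched no sample used here and were left out.

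Genotypes were compared with limma 3.58.1 (R 4.3.3, lmFit and eBayes, genotype only) on 16752 genes, the brightest probe set standing for a gene, with Benjamini-Hochberg adjustment over all of them at a threshold of 0.05. Residual degrees of freedom were 2 and prior degrees 3.447, and exact permutation of 2 against 2 arrays cannot go below p = 0.333, so the number of arrays limits the precision. The script was tested on simulated data. Chromosomes came from the table for 10 of the 28 genes and from neighbouring probe sets for 18, and equalled RefSeq for all 28. By this neighbour rule 16080 probe sets were placed, and it was right for 1273 of 1275 left out in turn.

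Every gene is named except 1 that is counted but not reported here, with values per array for the 4 of largest absolute difference in each substrate group. The genes, groups, partner and marker lists and named-gene rule were chosen with earlier results of these data known. Alternatives were the replicate block, leaving out each array, median centring, quantile normalisation, filters on dim probe sets, trended and robust eBayes, an unmoderated test, chromosome medians removed, averaged probe sets and thresholds of 0.01 and 0.1.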

Additional observations from a re-analysis of the deposited data

How the results depend on the processing

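On the values as deposited 1044 genes passed as higher and 668 as lower in Fh1Δ/Δ cells (61.0% higher), among the solute carriers 11 and 3. With chromosome medians removed 308 passed as lower and 989 as higher (76.3% higher), and among the solute carriers 1 as lower and 10 as higher. Median centring gave 807 and 1057 (43.3% higher) and 7 and 6 solute carriers. The median of all genes was -0.11 as deposited, -0.04 after quantile normalisation and -0.20 after centring. Trended and robust eBayes gave 1854 and 1471. Without the dimmest 25% of probe sets 1749 and 1526 passed, with 6 solute carriers lower, and without the dimmest 50% 1694 and 1246. At a threshold of 0.01, 197 and 51 passed, with 2 and 0 solute carriers, and at 0.1, 1897 and 2031, with 9 solute carriers lower. The unmoderated test of the same linear model passed 0 and 0 genes and 0 and 0 solute carriers. In that test 3668 of 16752 genes and all 28 solute carriers had an unadjusted p under 0.05. The 28 were named for passing the authors' test of these genotypes, so nothing is read from their number. Leaving out 1 array gave 205 to 480 higher and 81 to 322 lower genes, and 1 to 3 higher and 0 to 0 lower solute carriers. Slc47a1 reversed to 0.0332 with its chromosome median removed and to 0.0469 after quantile normalisation. Apart from the reversal of Slc47a1, no solute carrier changed sign under these settings. Apart from the fewer genes or samples of the filters and omissions, the cause of these changes was not tested. With the replicate number as a replicate block 7 solute carriers passed as higher and 1 as lower (1009 and 749 of all genes), and Slc38a1, Slc43a2, Slc39a14, Slc16a13, Slc1a6 and Slc19a1 no longer passed. The difference between replicates 1 and 2 in Fh1Δ/Δ cells correlated at 0.106 with that in Fh1fl/fl cells over 16755 probe sets (not independent replicates). That value cannot settle whether same-numbered arrays were made together, which was not tested. The main fit did not pair them.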

Other observations

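Proteins that anchor, accompany or regulate carriers were looked up in a list of 60, of which 9 had a name. With limma, 4 were higher in Fh1Δ/Δ cells, 2 lower and 3 did not pass. Of all genes tested, 6.23% passed as higher and 3.99% as lower, and 64.2% of the named genes passed in either direction. Emb (embigin), which escorts monocarboxylate transporters to the plasma membrane, was at 10.05 and 9.77 in Fh1Δ/Δ cells, against 8.44 and 8.20 in Fh1fl/fl cells (1.59, adjusted p = 0.00788). Fxyd5, an auxiliary subunit of the sodium pump, was higher by 1.10 (adjusted p = 0.0118). Txnip, which lowers glucose uptake by promoting endocytosis of glucose transporters, was at 9.39 and 9.23 in Fh1Δ/Δ cells, against 10.36 and 10.25 in Fh1fl/fl cells (-0.99, adjusted p = 0.0149). As with the carriers, these genes were named only where they had passed the authors' test, so nothing is read from the count.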
